A study of Mus musculus with 10 samples.

Results

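The 7 genes described here make, sense and remove extracellular adenosine: the ectonucleotidases *Entpd1* and *Nt5e*, the adenosine receptors *Adora1*, *Adora2a* and *Adora2b*, and the clearance enzymes *Ada* and *Adk*. They were chosen by name and not by their levels, though with earlier results of these data known. Each symbol matched 1 of the 45706 gene rows of the count table through GENCODE M21 on GRCm38. RNA came from 10 bulk melanomas taken on day 4 after subcutaneous injection of tumor cells into C57BL/6 mice that were 8 weeks old. The comparison asks how early tumors differ when the cancer cells cannot make prostaglandins, and which of the differences are altered when the host has no natural killer (NK) cells. The 4 *Ptgs*+/+ tumors grew from cells with intact cyclooxygenase genes in mice that received no depleting antibody. The 3 *Ptgs*-/- tumors grew in such mice from cells in which *Ptgs1* and *Ptgs2*, the genes of both cyclooxygenases, had been disrupted with CRISPR/Cas9. The 3 NK cell-depleted tumors grew from the same *Ptgs*-/- cells in mice given 200 µg of anti-NK1.1 (clone PK136) plus 30 µg of anti-asialo GM1 on the day of injection and again on day 2. There was no NK cell-depleted *Ptgs*+/+ group. All cells derive from 1 *Braf*-driven mouse melanoma line, and all genetic change was in the injected cells, so that stroma and immune cells carried wild-type *Ptgs* genes in every tumor.

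Cells release ATP when stressed or dying, and extracellular ATP alerts immune cells through P2 receptors. CD39, encoded by *Entpd1*, strips ATP and ADP to AMP, and CD73, encoded by *Nt5e*, turns AMP into adenosine, which raises cyclic AMP through the A2a and A2b receptors and so restrains T cells, NK cells and phagocytes. Prostaglandin E2, the product of the cyclooxygenase route, raises cyclic AMP in the same cells through receptors of its own. Adenosine is removed by deamination to inosine through adenosine deaminase (*Ada*) or, after uptake into cells, by phosphorylation to AMP through adenosine kinase (*Adk*).

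The libraries were made from transcript 3′ ends and held 8150556 to 12839174 counts, the fewest in *Ptgs*-/- replicate 1. Levels are given as CPM, the counts scaled to a common library size with TMM factors. The detection floor was taken as 3 counts, which is 0.234 to 0.368 CPM of the total counts and covers counting error only. Group differences are log2 fold changes from edgeR's quasi-likelihood test on all 10 libraries, and a gene passed when its Benjamini-Hochberg adjusted p over the 14550 genes tested was at or under 0.05. The labels checked as follows. *Ptgs2* fell by 2.62 on the log2 scale in *Ptgs*-/- against *Ptgs*+/+ tumors (adjusted p = 0.00229) and *Ptgs1* fell by 0.76 (adjusted p = 0.00202), while 744 and 263 or more reads of *Ptgs1* and *Ptgs2* were left in each *Ptgs*-/- tumor. *Ncr1*, an NK cell receptor gene, had 20, 48 and 77 counts in *Ptgs*-/- tumors and 0 in each NK cell-depleted tumor, and *Klrb1c*, which encodes the NK1.1 antigen, fell by 4.31 (adjusted p = 0.000569). Of the 8 melanocytic markers listed, *Slc45a2* was at 0 in all libraries and *Mitf* carried most of the reads, so the melanoma label was not visible in the pigment genes. *Ptgs*+/+ replicate 4 and *Ptgs*-/- replicate 3 carry the code EB042 in their titles and the other 8 libraries the code EB046. What the codes stand for is not stated. Nothing in the labels says how the tumors of a group relate to each other beyond being separate samples, and p-values measure the spread between these samples.

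All 7 genes were measured above the floor in every library and passed the filter on low counts. *Adora2a* was the only one of the 7 that passed the test, and it did so in 1 comparison: its level was higher in *Ptgs*-/- than in *Ptgs*+/+ tumors. That is 1 of 7 members (14.3%), where 23.1% of all genes tested passed in the same comparison, a lower share than that of all genes. No member passed in NK cell-depleted against *Ptgs*-/- tumors, where 1.44% of all genes did, and none in NK cell-depleted against *Ptgs*+/+ tumors, where 12.5% did. At an unadjusted p under 0.05 the numbers were 3, 1 and 1 of the 7 members, beside 5223, 1630 and 3932 of the 14550 genes tested. DESeq2 called 1, 0 and 0 members. With the study's further limit of 1.5 on the log2 fold change no member was left in any comparison, where 4.15%, 1.15% and 2.71% of all genes were. The libraries of 2 groups did not overlap for 0, 0 and 1 member, and for 30.5%, 17.6% and 26.6% of all genes. The median log2 fold change of the 7 members was -0.16, 0.05 and -0.08 in these comparisons in turn, beside -0.01, 0.01 and -0.01 for all genes tested. The 3 comparisons share libraries and are not independent of each other.

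**Figure D1:**
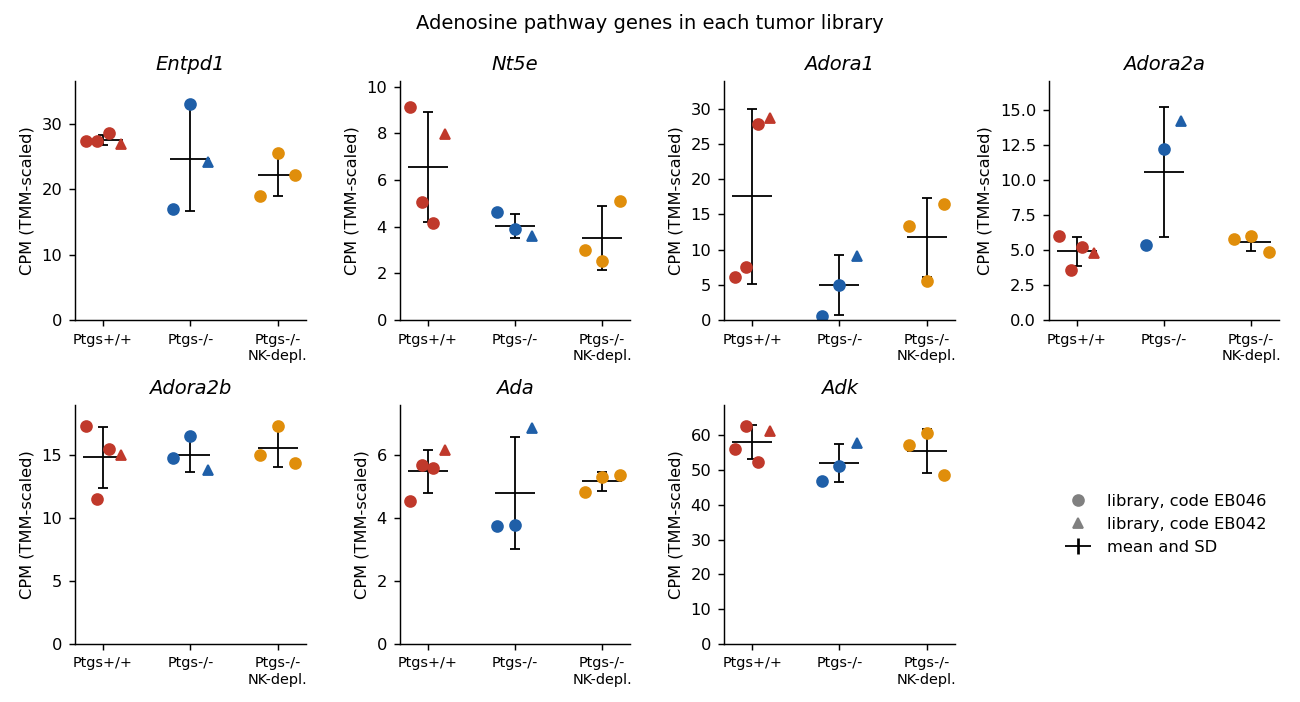
Level of each of the 7 genes in CPM (vertical axes, linear from 0) in every library, by group. Points are tumors, triangles mark code EB042, and black bars give the mean and SD. *Adora2a* was high in 2 of 3 *Ptgs*-/- tumors (12.2 and 14.2 CPM), and in the panels of *Adora2b*, *Ada* and *Adk* the groups lay over each other.

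*Entpd1* (ENSMUSG00000048120, chromosome 19 of GRCm38, 40612366 to 40741602, plus strand) encodes CD39, the enzyme that starts the breakdown of extracellular ATP and is carried by macrophages, endothelium and regulatory T cells. It measured 27.3, 27.4, 28.6 and 26.9 CPM in the *Ptgs*+/+ tumors, 16.9, 33.0 and 24.1 CPM in the *Ptgs*-/- tumors and 19.0, 25.5 and 22.2 CPM in the NK cell-depleted tumors. *Ptgs*+/+ tumors were almost alike, while the *Ptgs*-/- tumors lay on both sides of them. The difference between *Ptgs*-/- and *Ptgs*+/+ tumors was -0.16 on the log2 scale (SE 0.19, 95% interval -0.57 to 0.26) and did not pass (edgeR adjusted p = 0.591). NK cell-depleted tumors all lay below the *Ptgs*+/+ tumors, the 1 case without overlap among the members. Their difference of -0.31 did not pass (SE 0.19, 95% interval -0.73 to 0.11, edgeR adjusted p = 0.335). NK cell-depleted and *Ptgs*-/- tumors differed by -0.15 (95% interval -0.60 to 0.30, edgeR adjusted p = 0.827). A change of *Entpd1* by more than 0.73 on the log2 scale lies outside all 3 intervals. The pseudogenes *Gm16027* and *Gm8783* lie inside the gene and had 5 and 0 counts over all libraries. Macrophage markers summed to 1910 to 2240 CPM in *Ptgs*+/+, 2880 to 4490 CPM in *Ptgs*-/- and 2690 to 3080 CPM in NK cell-depleted tumors over 10 genes, and endothelial markers to 505 to 575, 181 to 420 and 317 to 466 CPM. Their part in the level of *Entpd1* was not tested.

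*Nt5e* (ENSMUSG00000032420, chromosome 9, 88327197 to 88372092, plus strand) encodes CD73, which makes adenosine from AMP and is known from endothelium, stromal cells and lymphocytes. Its levels were 9.13, 5.04, 4.14 and 7.95 CPM in *Ptgs*+/+ tumors, 4.61, 3.89 and 3.60 CPM in *Ptgs*-/- tumors, and 3.0, 2.51 and 5.09 CPM in NK cell-depleted tumors. *Ptgs*+/+ replicates 1 and 4 stood above all other libraries, and the remaining *Ptgs*+/+ tumors fell within the range of the other 6. The means were 6.57 ± 2.36 (SD, n = 4), 4.03 ± 0.518 (SD, n = 3) and 3.53 ± 1.37 CPM (SD, n = 3). *Nt5e* differed by -0.71 on the log2 scale between *Ptgs*-/- and *Ptgs*+/+ tumors (SE 0.32, 95% interval -1.41 to -0.01, edgeR adjusted p = 0.134) and by -0.89 between NK cell-depleted and *Ptgs*+/+ tumors (SE 0.32, 95% interval -1.60 to -0.19, edgeR adjusted p = 0.0958). Neither passed, although both unadjusted intervals lay below 0. Without *Ptgs*+/+ replicate 3, the lowest of its group, both differences passed at adjusted p = 0.0499 and 0.0380 by edgeR's quasi-likelihood test. NK cell-depleted against *Ptgs*-/- tumors gave -0.18 (95% interval -0.96 to 0.59, edgeR adjusted p = 0.882).

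*Adora2a* (ENSMUSG00000020178, chromosome 10, 75316877 to 75334784, plus strand) encodes the A2a receptor, the high-affinity receptor through which adenosine restrains T cells and NK cells. In *Ptgs*+/+ tumors it measured 6.04, 3.54, 5.22 and 4.81 CPM, in *Ptgs*-/- tumors 5.33, 12.2 and 14.2 CPM, and in NK cell-depleted tumors 5.79, 6.04 and 4.89 CPM. The counts behind these levels were 76, 33, 58 and 46, then 44, 119 and 162, then 54, 65 and 50. *Ptgs*-/- replicates 2 and 3 stood above every other tumor, whereas *Ptgs*-/- replicate 1 lay among the *Ptgs*+/+ and NK cell-depleted tumors, so the groups overlapped. Mean levels were 4.90 ± 1.04 (SD, n = 4), 10.6 ± 4.66 (SD, n = 3) and 5.58 ± 0.603 CPM (SD, n = 3). The rise in *Ptgs*-/- against *Ptgs*+/+ tumors was 1.11 on the log2 scale (SE 0.30, 95% interval 0.46 to 1.76), which passed (edgeR adjusted p = 0.0189) but did not reach the study's fold limit. NK cell-depleted tumors differed from *Ptgs*-/- tumors by -0.93 (SE 0.32, 95% interval -1.63 to -0.24, edgeR adjusted p = 0.268), which did not pass. They differed from *Ptgs*+/+ tumors by 0.18 (SE 0.31, 95% interval -0.49 to 0.85, edgeR adjusted p = 0.767).

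The *Adora2a* call rested on few tumors. Among libraries of code EB046 alone the log2 fold change was 0.86 with an adjusted p of 0.127 (edgeR's quasi-likelihood test), and the 2 libraries of code EB042 stood at 4.81 CPM (*Ptgs*+/+) and 14.2 CPM (*Ptgs*-/-), 1 to a group and so without a test. With the code as a term in the model the rise was 1.05 and passed (edgeR adjusted p = 0.0310). The call was lost without *Ptgs*+/+ replicate 2 (0.99, adjusted p = 0.0541), *Ptgs*-/- replicate 2 (1.01, adjusted p = 0.0715) or *Ptgs*-/- replicate 3 (0.87, adjusted p = 0.0821, all by edgeR). Without *Ptgs*-/- replicate 1 the rise was 1.42 (edgeR adjusted p = 0.000971), and the fall in NK cell-depleted tumors then passed as well, at -1.24 (edgeR adjusted p = 0.0152). *Ptgs*-/- replicate 1 was the shallowest library and also the lowest of all 10 in summed markers of endothelium (181 CPM) and adipocytes (212 CPM). In all 19 alternatives *Adora2a* was higher in *Ptgs*-/- than in *Ptgs*+/+ tumors, and it passed in 15 of them.

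**Figure D2:**
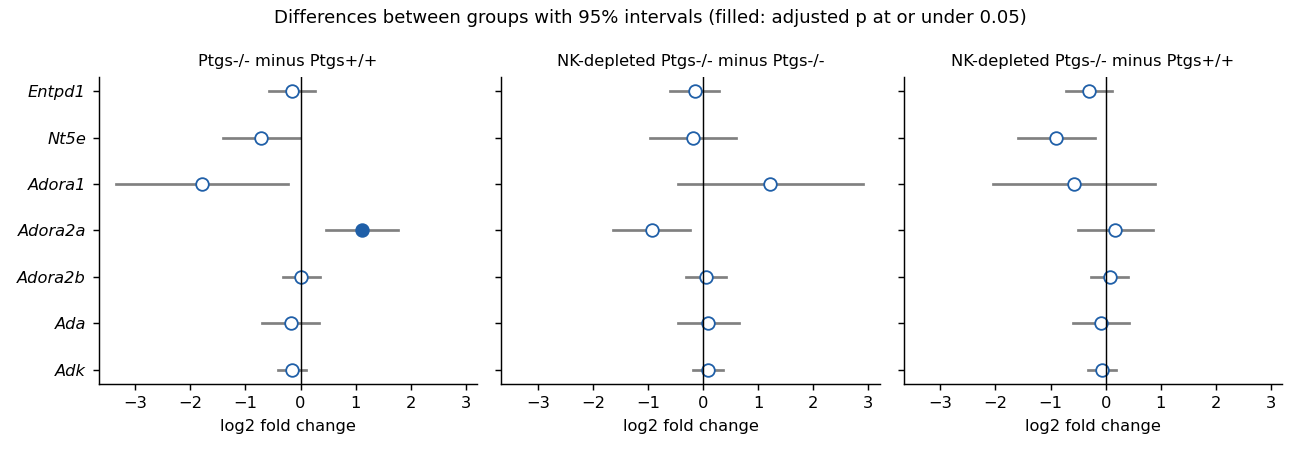
Log2 fold change of each gene (points) with its 95% interval (lines) in the 3 comparisons, on 1 shared horizontal axis. A filled point marks an adjusted p at or under 0.05, which *Adora2a* alone reached, at 1.11 in *Ptgs*-/- against *Ptgs*+/+ tumors.

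Lymphocyte markers were also higher in *Ptgs*-/- than in *Ptgs*+/+ tumors. The 9 T cell markers summed to 7.39 to 10.4 CPM in *Ptgs*+/+ tumors, to 24, 51.9 and 64 CPM in *Ptgs*-/- replicates 1 to 3, and to 16.1 to 20.4 CPM in NK cell-depleted tumors, and 7 of the 8 tested rose in *Ptgs*-/- against *Ptgs*+/+ tumors. Of these 8, 1 (*Lck*) fell in NK cell-depleted against *Ptgs*-/- tumors and 3 were still higher than in *Ptgs*+/+ tumors. Summed over 10 NK cell markers, the levels were 13 to 34 CPM, then 73.6, 87.3 and 150 CPM, then 5.79 to 6.51 CPM, and 9 of the 9 tested rose in *Ptgs*-/- and fell again in NK cell-depleted tumors. *Ncr1*, *Klre1*, *Gzma*, *Prf1* and *Klra8* were each at 0 in at least 1 library. Regulatory T cell markers (6 genes) ran from 12.5 to 15.1, 23.4 to 39.4 and 17.8 to 23.5 CPM, with *Ccr8* at 0 throughout. *Foxp3* had at most 8 counts in a library and was not tested. *Ikzf2* alone held 8.36 to 17.1 CPM of these sums. The 4 tested were *Ikzf2*, *Il2ra*, *Ctla4* and *Tnfrsf4*, and all 4 rose in *Ptgs*-/- against *Ptgs*+/+ tumors. Between NK cell-depleted and *Ptgs*-/- tumors 0 passed by edgeR, where 3 had an unadjusted p under 0.05. A rise of regulatory T cells was thus not shown by *Foxp3*. In *Ptgs*-/- replicate 1, the tumor without raised *Adora2a*, the summed T cell markers were the lowest of its group. The sum was still above that of every *Ptgs*+/+ and NK cell-depleted tumor. *Lck* held 9.7 of these 24 CPM, beside 4.18, 4.83 and 3.62 CPM in the NK cell-depleted tumors. Without *Lck* the sum was no longer above that of every NK cell-depleted tumor. Gene by gene, only *Lck* (9.7 CPM) and *Trac* (4 CPM) stood above every NK cell-depleted tumor, and the other T cell markers did not. *Cd3d*, for instance, was at 2.79 CPM there and at 3.65, 3.72 and 2.15 CPM in NK cell-depleted tumors. The summed NK cell markers in *Ptgs*-/- replicate 1 were above those of all 7 tumors outside its group. The part of these cells in the *Adora2a* level was not tested, and in bulk RNA fewer cells of a type and less RNA per cell cannot be told apart.

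The genes whose log2 CPM followed *Adora2a* most closely over the 10 libraries were *Cd2*, an adhesion receptor of T and NK cells, and *Cd247*, the zeta chain of the T cell receptor that NK cells also use. Pearson's r was 0.95 for *Cd2* (Spearman's rho 0.903) and 0.947 for *Cd247* (rho 0.83). Left without the 2 libraries farthest from the median of *Adora2a*, r was 0.879 and 0.786. As deviations from the group means r was 0.942 and 0.928. *Cd2* stood at 5.57, 13.3 and 14.3 CPM in the *Ptgs*-/- tumors, between 1.18 and 3.57 CPM in *Ptgs*+/+ tumors and between 3.32 and 4.73 CPM in NK cell-depleted tumors. These values describe 10 libraries that share group and depth with each gene, and *Cd2* and *Cd247* were picked as the highest of all genes tested, so they carry no p.

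**Figure D3:**
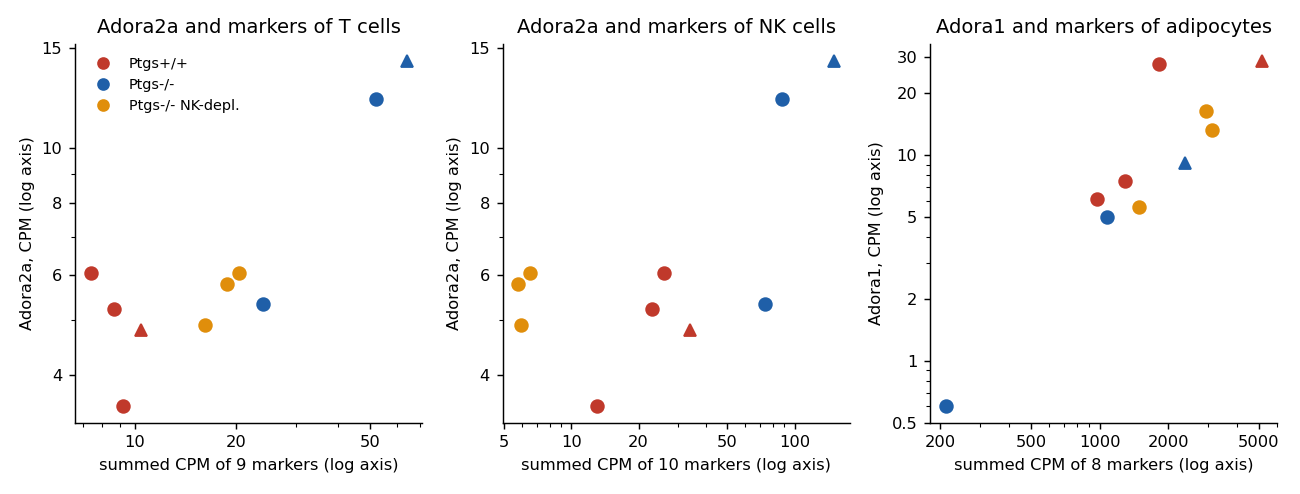
*Adora2a* against the summed markers of T cells and of NK cells, and *Adora1* against those of adipocytes, per library (all axes in CPM on a log scale). Colors give the group and triangles code EB042. The 2 tumors with the highest *Adora2a* (12.2 and 14.2 CPM) were those with the most T cell and NK cell marker reads, and the tumor with the lowest *Adora1* (0.606 CPM) had the fewest adipocyte marker reads.

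*Adora2b* (ENSMUSG00000018500, chromosome 11, 62248984 to 62266453, plus strand) encodes the A2b receptor, which has a lower affinity for adenosine and is found on macrophages, endothelium and stromal cells. It measured 17.3, 11.5, 15.5 and 15.0 CPM in *Ptgs*+/+ tumors, 14.8, 16.5 and 13.8 CPM in *Ptgs*-/- tumors, and 15.0, 17.3 and 14.4 CPM in NK cell-depleted tumors. The ranges of the 3 groups overlapped. The log2 differences were 0.02 (95% interval -0.33 to 0.36) for *Ptgs*-/- against *Ptgs*+/+, 0.05 (-0.31 to 0.42) for NK cell-depleted against *Ptgs*-/-, and 0.07 (-0.27 to 0.41) for NK cell-depleted against *Ptgs*+/+ tumors, with adjusted p of 0.952, 0.929 and 0.825 by edgeR's quasi-likelihood test. A change of *Adora2b* as large as the rise of *Adora2a* lies outside each of these intervals.

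Since both genes couple to cyclic AMP, the balance between them was followed as the share of *Adora2a* in the reads of *Adora2a* and *Adora2b* together, a measure chosen after their levels had been seen. The share was 25.9%, 23.6%, 25.2% and 24.3% in the *Ptgs*+/+ tumors, 26.5%, 42.5% and 50.8% in the *Ptgs*-/- tumors, and 27.8%, 25.9% and 25.4% in the NK cell-depleted tumors. *Ptgs*-/- replicates 2 and 3 stood apart from the other 8 tumors, which agreed closely. The Wilson 95% intervals of these 2 tumors ran from 36.8% to 48.4% and from 45.3% to 56.2%, while the highest upper bound among the others was 34.5%, counting error only. The share uses the same *Adora2a* reads that already set these 2 tumors apart, so it adds no separate support. Group means were 24.8 ± 1.01% (SD, n = 4), 39.9 ± 12.4% (SD, n = 3) and 26.4 ± 1.27% (SD, n = 3). The share says nothing of receptor protein, and how well each 3′ end was captured is not known, so it is compared between tumors only.

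*Adora1* (ENSMUSG00000042429, chromosome 1, 134199223 to 134235431, minus strand) encodes the A1 receptor, which lowers cyclic AMP and in fat tissue restrains lipolysis. Its levels were 6.12, 7.51, 27.9 and 28.7 CPM in *Ptgs*+/+ tumors, 0.606, 5.01 and 9.13 CPM in *Ptgs*-/- tumors, and 13.3, 5.58 and 16.5 CPM in NK cell-depleted tumors. It was the most uneven of the 7 genes, with the highest library 47.3-fold above the lowest, *Ptgs*-/- replicate 1, which held 5 counts. The difference between *Ptgs*-/- and *Ptgs*+/+ tumors was -1.79 on the log2 scale (SE 0.72, 95% interval -3.35 to -0.22) and did not pass edgeR's test (adjusted p = 0.1005). With no filter on low counts it passed, at -1.77 (edgeR adjusted p = 0.0151). NK cell-depleted tumors differed by 1.22 from *Ptgs*-/- tumors (95% interval -0.46 to 2.90, edgeR adjusted p = 0.617) and by -0.57 from *Ptgs*+/+ tumors (95% interval -2.04 to 0.90, edgeR adjusted p = 0.650). The last 2 intervals held 0, and all 3 were wide. The 8 adipocyte markers summed to 975, 1290, 1830 and 5130 CPM in *Ptgs*+/+, 212, 1080 and 2360 CPM in *Ptgs*-/- and 3100, 1490 and 2920 CPM in NK cell-depleted tumors, and none of the 8 passed in any comparison. *Fabp4* was the largest part of every sum, with 697, 867, 800 and 4080 CPM in the *Ptgs*+/+ tumors, so the sums follow this gene most. Of all genes tested, *Trarg1*, which acts in glucose transporter traffic in fat and muscle, had the pattern most like *Adora1* over the 10 libraries (r = 0.991, rho 0.964, and 0.981 without the 2 farthest libraries). *Fah* came next (r = 0.981, rho 0.952, and 0.925 without those 2 libraries). Both genes were looked up after the values of *Adora1* had been seen. How much of the *Adora1* signal came with fat around the tumors was not tested. *Adora1* overlaps *Mybph* on the other strand, which had 0 counts in all libraries.

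*Ada* (ENSMUSG00000017697, chromosome 2, 163726584 to 163750239, minus strand) encodes adenosine deaminase. It measured 4.53, 5.68, 5.58 and 6.17 CPM in *Ptgs*+/+ tumors, 3.76, 3.79 and 6.85 CPM in *Ptgs*-/- tumors and 4.83, 5.30 and 5.38 CPM in NK cell-depleted tumors. *Ptgs*-/- tumors included both the lowest libraries and the highest one. The log2 differences of -0.18 (*Ptgs*-/- against *Ptgs*+/+, 95% interval -0.69 to 0.34), 0.10 (NK cell-depleted against *Ptgs*-/-, -0.46 to 0.65) and -0.08 (NK cell-depleted against *Ptgs*+/+, -0.59 to 0.43) did not pass (adjusted p = 0.630, 0.916 and 0.867 by edgeR's quasi-likelihood test). *Adk* (ENSMUSG00000039197, chromosome 14, 21052574 to 21448569, plus strand) encodes adenosine kinase, which returns adenosine to the AMP pool. Its levels were 56.1, 62.8, 52.2 and 61.2 CPM, then 47.0, 51.3 and 57.7 CPM, then 57.2, 60.7 and 48.6 CPM in the same order of groups. The 3 groups overlapped. Its log2 differences were -0.16 (95% interval -0.41 to 0.10), 0.09 (-0.18 to 0.36) and -0.07 (-0.32 to 0.19), with adjusted p of 0.363, 0.827 and 0.776 by edgeR, so that a change of *Adk* by more than 0.41 on the log2 scale lies outside all 3 intervals.

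Ordered by mean, neighboring groups overlapped in their libraries for each of the 7 genes. *Nt5e* and *Entpd1* ran from *Ptgs*+/+ through *Ptgs*-/- to NK cell-depleted tumors, *Adora1*, *Ada* and *Adk* from *Ptgs*+/+ through NK cell-depleted to *Ptgs*-/- tumors, *Adora2a* from *Ptgs*-/- through NK cell-depleted to *Ptgs*+/+ tumors, and *Adora2b* from NK cell-depleted through *Ptgs*-/- to *Ptgs*+/+ tumors.

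Among the surrounding purine genes a larger share passed. Of 57 listed genes of ATP release and breakdown, nucleoside transport, intracellular adenosine and AMP metabolism, P2 receptors and Golgi diphosphatases, 56 matched a row and 45 were tested. In *Ptgs*-/- against *Ptgs*+/+ tumors 13 rose and 5 fell (40% of those tested, beside 23.1% of all genes, of which 12.1% rose and 11% fell), with a median log2 fold change of 0.35. In NK cell-depleted against *Ptgs*+/+ tumors 9 rose and 3 fell (26.7%, beside 12.5% of all genes, 6.63% higher and 5.87% lower), with a median of 0.21. Between NK cell-depleted and *Ptgs*-/- tumors 1 rose and none fell (2.22%, beside 1.44% of all genes, 0.921% higher and 0.515% lower), with a median of -0.05. Among libraries of code EB046 alone 10 genes in place of 18 passed in the first comparison and none between NK cell-depleted and *Ptgs*-/- tumors. Without *Ptgs*-/- replicate 2 the first count was 10 as well. These counts describe the lists and were not tested against other genes.

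**Figure D4:**
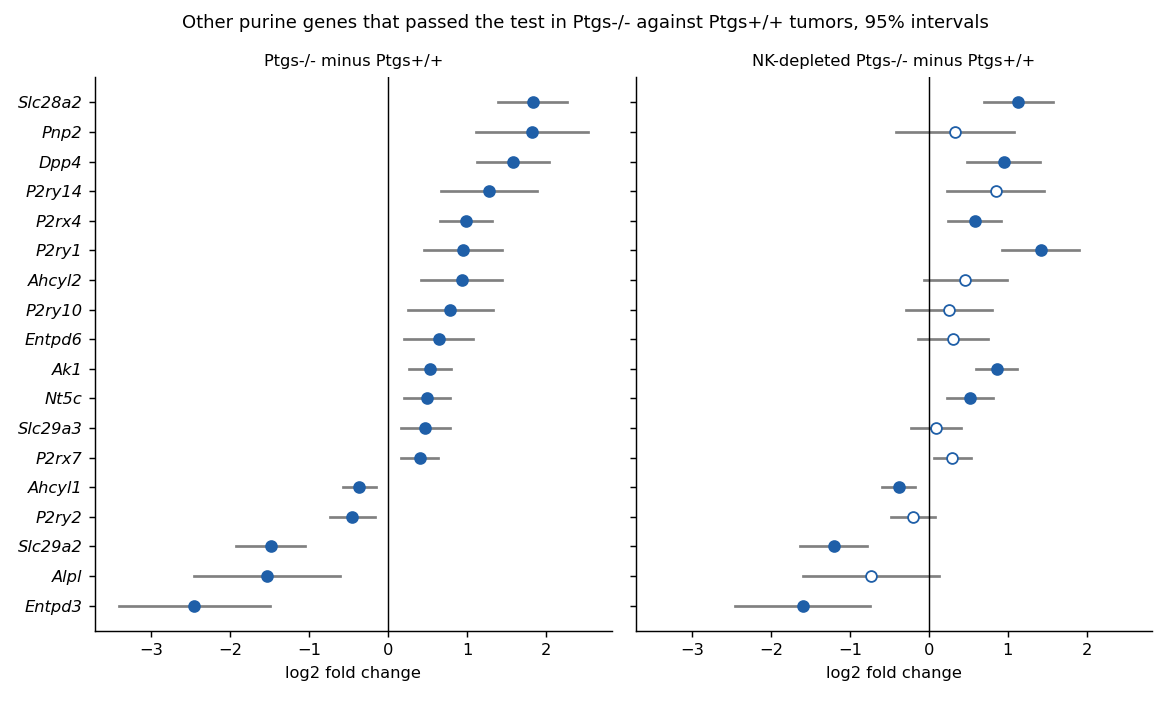
Log2 fold change (points) and 95% interval (lines) of the 18 listed purine genes that passed in *Ptgs*-/- against *Ptgs*+/+ tumors, with the same genes in NK cell-depleted against *Ptgs*+/+ tumors beside them. Filled points passed in that comparison. The genes were chosen by the left panel, in which *Slc28a2* had the highest value (1.83) and *Entpd3* the lowest (-2.46).

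Among transporters, *Slc28a2*, a concentrative carrier that brings adenosine into cells with sodium, rose from 24.5, 20.2, 15.6 and 28.1 CPM in *Ptgs*+/+ to 67.8, 102 and 66.5 CPM in *Ptgs*-/- tumors, and measured 47.1, 46.3 and 52.1 CPM in NK cell-depleted tumors. The 3 groups did not overlap. Its log2 fold change was 1.83 in *Ptgs*-/- (SE 0.20, edgeR adjusted p = 0.000164) and 1.13 in NK cell-depleted tumors (SE 0.20, edgeR adjusted p = 0.00363) against *Ptgs*+/+ tumors, and it passed in all 19 alternatives of both. Of the 31-base words in its GENCODE M21 transcripts, 46.3% also occur in those of *Gm14085*, and how reads shared by 2 genes were counted is not given in the sources used here, so the level of *Slc28a2* is uncertain. *Slc29a2*, an equilibrative nucleoside carrier, fell by 1.49 in *Ptgs*-/- and by 1.21 in NK cell-depleted tumors (edgeR adjusted p = 0.000586 and 0.00247), from 18.4, 19, 17.3 and 12.6 CPM to 7.15, 6.45 and 4.48 CPM and to 6.97, 7.71 and 7.15 CPM.

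Among enzymes and their partners, *Dpp4* encodes CD26, the surface protein that anchors adenosine deaminase on human cells. That role was not examined in these mouse tumors, and the level of *Dpp4* says nothing of adenosine clearance in them. *Dpp4* rose by 1.58 in *Ptgs*-/- (edgeR adjusted p = 0.000507) and by 0.95 in NK cell-depleted tumors (edgeR adjusted p = 0.0130) against *Ptgs*+/+ tumors. Its levels were 16.8, 11.6, 14.1 and 17.2 CPM in *Ptgs*+/+, 41.9, 61 and 31.1 CPM in *Ptgs*-/- and 28.4, 27.3 and 30.8 CPM in NK cell-depleted tumors, without overlap. *Entpd3*, another ectonucleotidase that hydrolyzes ATP, fell by 2.46 and 1.60 (edgeR adjusted p = 0.00211 and 0.0204), with 65, 37, 32 and 69 counts in *Ptgs*+/+, 3, 8 and 15 in *Ptgs*-/- and 11, 19 and 18 in NK cell-depleted tumors. *Entpd3* thus moved where *Entpd1* did not pass, at a level that touched the floor of 3 counts in *Ptgs*-/- replicate 1. *Pnp2*, a purine nucleoside phosphorylase, rose by 1.82 in *Ptgs*-/- tumors (edgeR adjusted p = 0.00235), with 3.54 to 3.96 CPM in *Ptgs*+/+ tumors and 8.37, 20.4 and 10.2 CPM in *Ptgs*-/- tumors. It stood at 2.79, 4.65 and 6.36 CPM in NK cell-depleted tumors, and its level is uncertain for the same reason, since it lies inside the annotated span of *Pnp*, matched by no row here, and shares 38.3% of its 31-base words with it. *Ahcyl2*, related to the hydrolase of S-adenosylhomocysteine, rose by 0.93 in *Ptgs*-/- tumors (edgeR adjusted p = 0.0149), and its relative *Ahcyl1* fell by 0.37 in *Ptgs*-/- and by 0.38 in NK cell-depleted tumors (edgeR adjusted p = 0.0177 and 0.0224).

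Many P2 receptors sense extracellular nucleotides. Of the 12 genes tested in their list, which also held *Adora3*, 5 rose and 1 fell in *Ptgs*-/- against *Ptgs*+/+ tumors. Of all genes tested 12.1% rose and 11% fell there. Among the 10 macrophage markers 7 rose and none fell in the same comparison, with a median log2 fold change of 0.78. The part of macrophages in the receptor levels was not tested. *P2rx4*, an ATP-gated channel, went from 55, 45.7, 45.2 and 58.7 CPM to 83.7, 127 and 93.7 CPM in *Ptgs*-/- and 69.2, 81.5 and 78.9 CPM in NK cell-depleted tumors, a rise of 0.99 and of 0.58 (edgeR adjusted p = 0.00102 and 0.0280). *P2rx7*, the channel through which high ATP activates the inflammasome, rose by 0.40 in *Ptgs*-/- tumors (edgeR adjusted p = 0.0192). *P2ry14*, a receptor for UDP-sugars, rose by 1.27 there (edgeR adjusted p = 0.00694), again with *Ptgs*-/- replicate 1 lowest, at 7.40 CPM against 21 and 17 CPM. *P2ry1*, an ADP receptor, rose by 0.95 in *Ptgs*-/- and by 1.42 in NK cell-depleted tumors (edgeR adjusted p = 0.0113 and 0.00175). *Adora3*, the fourth adenosine receptor, was kept with this list and rose in NK cell-depleted against *Ptgs*+/+ tumors by 0.84 (edgeR adjusted p = 0.0474). That call stood in 9 of 19 alternatives. *Adora3* measured 4.45, 5.68, 4.50 and 3.77 CPM in *Ptgs*+/+, 4.73, 9.11 and 7.38 CPM in *Ptgs*-/- and 6.87, 10.6 and 7.24 CPM in NK cell-depleted tumors.

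*Ampd1*, the AMP deaminase of skeletal muscle, was the gene of these lists that passed between NK cell-depleted and *Ptgs*-/- tumors. It had 1, 3, 11 and 5 counts in *Ptgs*+/+ tumors, 18, 17 and 6 in *Ptgs*-/- tumors and 94, 147 and 281 in NK cell-depleted tumors. The log2 fold change was 3.56 against *Ptgs*-/- (SE 0.56, edgeR adjusted p = 0.00691) and 5.14 against *Ptgs*+/+ tumors (SE 0.65, edgeR adjusted p = 0.000192). *Ak1*, the adenylate kinase known from muscle and red cells, rose against *Ptgs*+/+ tumors by 0.86 in NK cell-depleted and by 0.53 in *Ptgs*-/- tumors (edgeR adjusted p = 0.000755 and 0.00816). The 10 skeletal muscle markers summed to 24.9 to 170 CPM in *Ptgs*+/+, 105 to 371 CPM in *Ptgs*-/- and 2320, 3160 and 5380 CPM in NK cell-depleted tumors, and 8 of the 9 tested passed between the last 2 groups. The part of muscle tissue in the levels of *Ampd1*, *Ak1* and *P2ry1* was not tested. *Enpp3*, an ectoenzyme that splits ATP to AMP, and *Nt5c*, a cytosolic nucleotidase, rose in NK cell-depleted against *Ptgs*+/+ tumors by 0.95 and 0.53 (edgeR adjusted p = 0.0472 and 0.0238). *Nt5c* rose by 0.49 in *Ptgs*-/- against *Ptgs*+/+ tumors as well (edgeR adjusted p = 0.0198).

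Some of these calls held in each of the 10 fits that left out 1 library. In *Ptgs*-/- against *Ptgs*+/+ tumors these were *Slc28a2*, *Dpp4*, *Slc29a2*, *P2rx4*, *Entpd3*, *Pnp2*, *P2ry14* and *Ak1*, and in NK cell-depleted against *Ptgs*+/+ tumors *Ampd1*, *Ak1*, *P2ry1*, *Slc29a2* and *Slc28a2*. *Ahcyl2* and *P2rx7* were lost without *Ptgs*-/- replicate 3 (edgeR adjusted p = 0.0619 and 0.0595), *P2ry1* in *Ptgs*-/- tumors without *Ptgs*-/- replicate 2 (0.0601) and *Dpp4* in NK cell-depleted tumors without NK cell-depleted replicate 3 (0.0591). *Ahcyl1* passed in 7 of 10 such fits in *Ptgs*-/- tumors, with a loss without *Ptgs*+/+ replicate 1 or *Ptgs*-/- replicate 2 or 3 (at most 0.0957). The other calls in NK cell-depleted against *Ptgs*+/+ tumors leaned on more libraries. *Entpd3*, *Nt5c* and *P2rx4* passed in 6 of 10 fits each, with adjusted p up to 0.0884, 0.0912 and 0.101, and *Ahcyl1* in 5, up to 0.103. *Enpp3* and *Adora3* passed in 2 of 10, up to 0.147 and 0.204, and were lost without any 1 library of the 2 groups compared and without *Ptgs*-/- replicate 3. The calls of *Entpd3*, *Nt5c*, *P2rx4* and *Ahcyl1* were lost without NK cell-depleted replicate 2 or 3 and without 1 or 2 *Ptgs*+/+ libraries, and all but *P2rx4* also without NK cell-depleted replicate 1.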

How the data were processed

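Tumor RNA (500 ng per library) was sequenced with QuantSeq 3′ libraries. Per the study's methods, reads were trimmed, aligned to GRCm38 with STAR and counted per gene. The deposited values are whole-number counts of reads on each gene for each tumor, which the authors had neither normalized nor pooled. How strand, multiply mapping reads and molecular identifiers were treated is not given in the sources used here. Since reads come from 3′ ends, counts do not scale with transcript length, and levels were compared within a gene only. Samples were grouped by the submitters' titles.

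The tests were run in edgeR 4.0.16 under R 4.3.3: filterByExpr (14550 genes kept), TMM, and the quasi-likelihood test on 3 group means over all 10 libraries, with Benjamini-Hochberg adjustment. Intervals used the fitted standard error and a t quantile. Log2 CPM for likeness used a prior count of 2. Replicates differed by a chi-square of 7.36 to 30.1 per degree of freedom, so no library was counted again. The steps were tested on simulated data for *Ptgs*-/- against *Ptgs*+/+ tumors. Of 200 genes changed by 1 on the log2 scale 115 passed (57.5%), and of 200 changed by 2, 184 passed (92%). Of the unchanged genes 5 and 8 passed. These runs held 200 changed genes among 14332 and 14341, whereas 3360 of 14550 genes passed in the tumors. The adjusted p depends on that share, so 57.5% and 92% need not hold for the tumors. How many true changes of 1 or less went without a call was not tested. Alternatives were DESeq2 1.42.0, library size alone, no filter or at least 10 counts in every library, a likelihood ratio test, only the groups compared, the title code as a term or code EB046 alone, a block for the title number, leaving out every library in turn, and the study's fold limit.

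The members and gene lists were chosen with earlier results of these data known. Named genes are the 7 members, up to 12 passing genes of the purine lists per comparison by smallest p, the 2 genes most like a member that passed, and *Ptgs1*, *Ptgs2*, *Ncr1* and *Klrb1c* as checks. *Trarg1* and *Fah* fall outside this rule.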

Additional observations from a re-analysis of the deposited data

Results flagged for a closer look

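*Pnp2* stood apart in 1 tumor of a group: its highest level among the 4 *Ptgs*+/+ libraries, 3.96 CPM in replicate 3, lay farther from the other 3 libraries (3.54 to 3.57 CPM) than Dixon's 95% critical value for 4 samples allows. It was 1 of 23 such groups of 4 examined, and chance gives about 1 in 20. The gap is small beside the rise of *Pnp2* in *Ptgs*-/- tumors.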

How the results depend on the processing

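Members that passed in *Ptgs*-/- against *Ptgs*+/+ tumors numbered 1, and 2 with no filter on low counts (*Adora1* and *Adora2a*), 0 among libraries of code EB046 alone, 0 with the fold limit of 1.5, and 0 to 2 with 1 library left out at a time. In NK cell-depleted against *Ptgs*-/- tumors the number was 0 to 1 with 1 library left out (*Adora2a* without *Ptgs*-/- replicate 1), and against *Ptgs*+/+ tumors 0 to 1 (*Nt5e* without *Ptgs*+/+ replicate 3). Of the purine lists, 18 passed in *Ptgs*-/- against *Ptgs*+/+ tumors, 10 with code EB046 alone and 10 to 22 with 1 library left out, lowest without *Ptgs*-/- replicate 2. Between NK cell-depleted and *Ptgs*-/- tumors 1 passed, 2 with DESeq2, with no filter and with the likelihood ratio test, 0 with at least 10 counts in every library, which removes *Ampd1*, 0 with code EB046 alone and 1 to 3 with 1 library left out, highest without *Ptgs*-/- replicate 1. Between NK cell-depleted and *Ptgs*+/+ tumors 12 passed, and 5 to 13 with 1 library left out, with 7 without *Ptgs*+/+ replicate 1, *Ptgs*+/+ replicate 2 or NK cell-depleted replicate 1, 6 without NK cell-depleted replicate 2 and 5 without NK cell-depleted replicate 3. Code EB046 alone also leaves out 2 libraries. With the code as a term and all libraries kept, 1, 0 and 0 members and 18, 1 and 10 genes of the lists passed. The cause of these shifts was not tested.

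With the title number as a replicate block, 1, 0 and 0 members and 19, 1 and 11 genes of the purine lists passed in the 3 comparisons. Whether the numbers pair the tumors is not settled by these data. Of the same-number pairs, 4 of 11 correlated above 0.1 (range -0.244 to 0.355). Their median was 0.05, beside -0.002 for pairs with other numbers. Some same-number pairs joined libraries of different codes, the lowest (-0.244) among them. *Ptgs*+/+ replicates 2 and 4 carry the same title number but different codes, so the block also joins libraries across codes. With their own number, 6 of 10 libraries correlated best, and the share expected by chance was not worked out. Few reads limit several of these genes in single libraries, such as *Adora1* (5 counts) and *Entpd3* (3 counts) in *Ptgs*-/- replicate 1 and *Ampd1* (1 count) in *Ptgs*+/+ replicate 1. A member that did not pass may still differ within its interval.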
